A study of Mus musculus with 4 samples.

Results

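Clones of CD8+ T cells that had members in 2 states at once, transitory effector cells (transitory Teff) and TIM-3+ exhausted cells (TIM-3+ Tex), were compared with themselves. Cells were joined to their T cell receptor (TCR) by barcode, and a clonotype was kept when it held at least 2 cells in each of the 2 clusters in the same library. A clonotype is defined by the authors' strict string, which joins gene segments and CDR3 nucleotides of both chains, TRA and TRB. The rule found 37 clonotypes in 4 libraries, called shared clonotypes here, with 508 transitory Teff and 455 TIM-3+ Tex cells, 963 of the 11754 cells in the series. The members were chosen by cluster membership, which the authors derived from the gene expression of these same cells. All differences between the clusters are therefore given as descriptions with no test, and intervals cover counting error only.

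The cells were BM CD8+ T cells, sorted by flow cytometry at day 28 (week 4) after stem cell transplantation (SCT) of mice on a C57BL/6 background, WT or CRBN transgenic. According to the paper, recipient mice were injected with myeloma cells before SCT. Each recipient had a graft of BM cells and T cells from genetically matched donors according to the sample labels, which do not say which groups were CRBN transgenic (mice whose altered mouse cereblon can be engaged by lenalidomide). The 4 treatment groups were isotype control with vehicle, TIGIT inhibition with vehicle, isotype control with lenalidomide, and TIGIT inhibition with lenalidomide, where antibody started on the day of SCT and lenalidomide on day 14. Each group was 1 library from 5 pooled mice, and since no deposited column ties a library number to its treatment, libraries are called by number and treatments are not compared. Clonotypes of a library share its mice and its processing and are not replicates.

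A T cell passes its rearranged TCR to its daughters, so a shared CDR3 nucleotide sequence usually marks common descent. During persistent exposure to antigen, CD8+ T cells that express TCF-1 self-renew and give rise to transitory effector cells, which traffic and kill, and to terminally exhausted cells, which express TIM-3 and further inhibitory receptors. Comparing states within a clone holds the receptor, and with it the antigen specificity, fixed where both chains are known. Of the shared clonotypes, 3 had no TRA chain, so their receptor is known by TRB alone. A further limit is that 4 had 2 TRA chains and 4 had 2 TRB chains.

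The clonotypes were not all independent. By exact sharing of a CDR3 nucleotide sequence they formed 20 groups, of which 14 held 1 clonotype and 6 held the other 23. TCR chains are shown for the largest group, which had 7 clonotypes in libraries 1 and 2, because they show why several clonotype names belong together. Capitals mark bases that match neither the end of the V gene nor the start of the J gene in the GENCODE M21 transcripts (GRCm38).
TRAV16N/TRAJ49: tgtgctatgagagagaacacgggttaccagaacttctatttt
TRAV12-2/TRAJ27: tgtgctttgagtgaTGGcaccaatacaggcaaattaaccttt
TRBV1/TRBJ2-1: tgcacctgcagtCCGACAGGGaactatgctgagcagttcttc
TRBV1/TRBJ1-4: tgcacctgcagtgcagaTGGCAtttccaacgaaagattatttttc

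The first TRA chain has 0 such bases, and the first TRB chain has 9. The segments lie on the plus strand at chr14:53351028-53351621 (Trav16n), chr14:53616315-53616914 (Trav12-2) and chr6:40891229-40891885 (Trbv1). In library 1, 95 cells carried TRAV12-2 with both TRB chains and 58 cells carried TRAV16N with both TRB chains, beside 170 cells with TRAV16N and the TRBJ2-1 chain and 83 cells with TRAV12-2 and the TRBJ1-4 chain. Whether such names are 1 clone with a chain missed in some cells, or droplets with 2 cells, was not tested.

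The next 3 groups are shown by the TRB chain that most or all of their clonotypes carried.
Group 2, TRBV16/TRBJ2-7, library 4: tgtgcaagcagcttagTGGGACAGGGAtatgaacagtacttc
Group 3, TRBV17/TRBJ2-7, libraries 2 and 3: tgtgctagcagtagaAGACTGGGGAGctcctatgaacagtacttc
Group 4, TRBV5/TRBJ2-7, libraries 1 and 4: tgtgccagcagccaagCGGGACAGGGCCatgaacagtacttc

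Of the 20 groups, 3 had cells in 2 libraries with the same nucleotides in the CDR3. Of 56 barcodes that occurred in 2 libraries, 0 joined cells of the same clonotype, and 8 of the 963 cells carried such a barcode.

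TIM-3+ Tex made up 14.8% to 85% of a shared clonotype's cells in the 2 clusters, with a median of 45.5%, and exceeded the transitory Teff share in 15 of the 37. The largest clonotype, TRAV16N with TRBV1 in library 1, had 38 transitory Teff and 74 TIM-3+ Tex cells, 66.1% TIM-3+ Tex (Clopper-Pearson 95% interval 56.5 to 74.7). In contrast, TRAV9-4 with TRBV16 in library 4 had 67 transitory Teff and 22 TIM-3+ Tex cells, 24.7% (16.2 to 35.0). TRAV9-1 with TRBV17 in library 2 had 64 and 20 cells, 23.8% (15.2 to 34.3). These intervals did not overlap that of the largest clonotype. The other members of the 6 with most cells were the 2 group 1 clonotypes with 95 and 83 cells, at 58.3% (40.8 to 74.5) and 53.7% (37.4 to 69.3), and the group 4 clonotype with TRAV13N-1, TRAV12D-3 and TRBV5 in library 4, at 75.4% (63.1 to 85.2). The lowest share was that of TRAV3-1 with TRBV13-1 in library 4, with 23 transitory Teff and 4 TIM-3+ Tex cells (14.8%, 4.19 to 33.7), and the highest that of TRAV14D-2 with TRBV10 in library 1, with 3 and 17 cells (85%, 62.1 to 96.8).

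**Figure D1:**
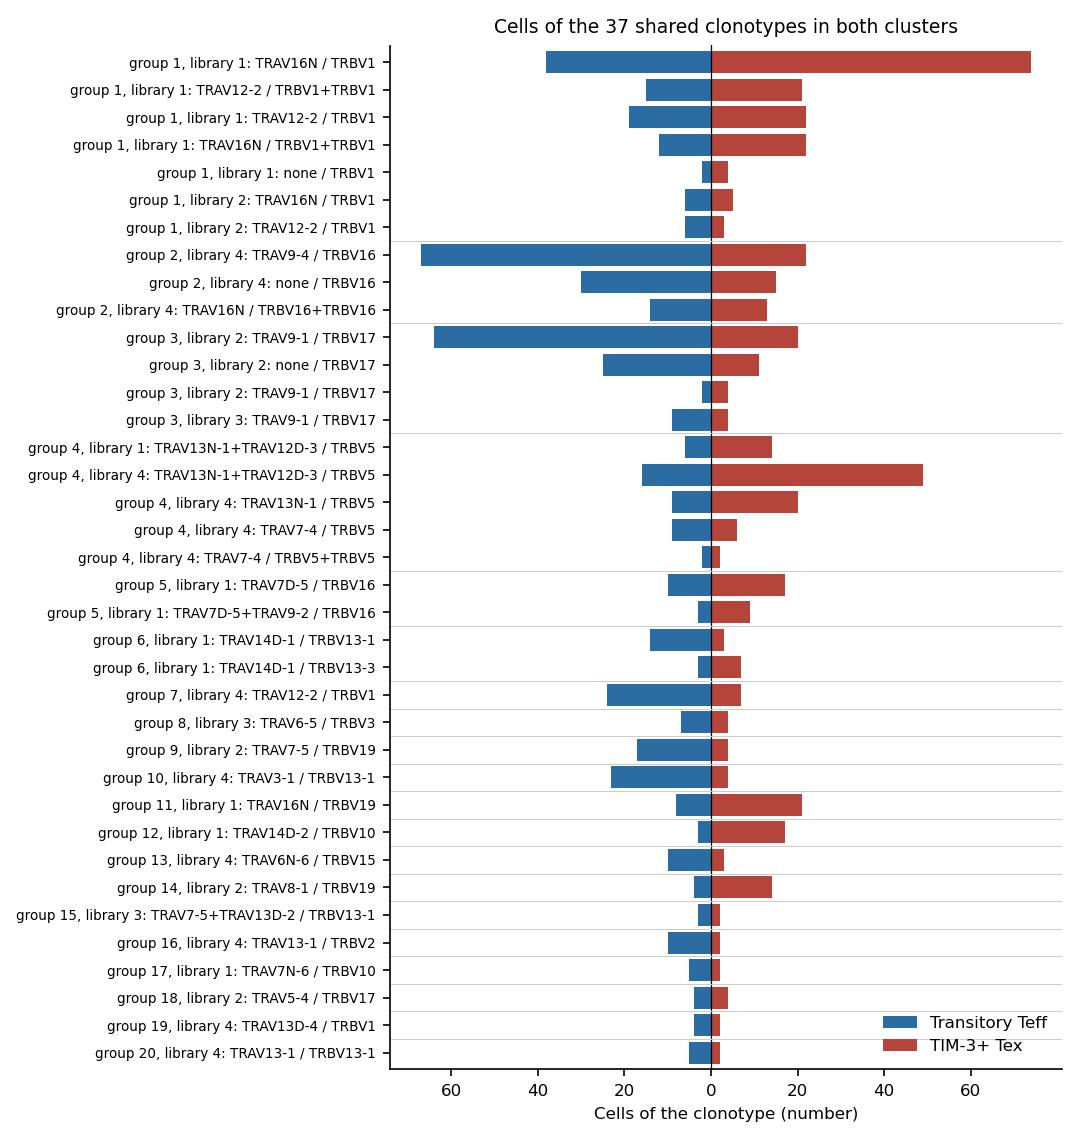
Cells of each of the 37 shared clonotypes in transitory Teff (left, blue) and TIM-3+ Tex (right, red), by number of cells on the x axis; rows give the chain-sharing group, library and V genes. The largest clonotype has 38 and 74 cells and the next by size, in group 2, has 67 and 22.

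The balance differed between groups in the same library. In library 4, group 4 was 68.1% TIM-3+ Tex (58.7 to 76.6; 113 cells) and group 2 was 31.1% (24 to 38.8; 161 cells). Group 4 cells of library 1 were at 70.0% (45.7 to 88.1; 20 cells), although all shared clonotypes together were at 62.8% in library 1 and 39.7% in library 4. Groups were not uniform. In library 4, the group 4 clonotypes with TRAV13N-1 were at 75.4% and 69%, and those with TRAV7-4 at 40% and 50%. The group 4 cells of library 1 were of a TRAV13N-1 clonotype, so the 2 libraries hold unlike sets. Group 6, in library 1, held clonotypes at 17.6% and 70%. Group 3 was at 27.8% (20.2 to 36.5) in library 2 and 30.8% (9.09 to 61.4) in library 3. Group 1 was at 62.4% (55.8 to 68.7) in library 1 and 40% (19.1 to 63.9) in library 2, with 20 cells in the latter. Where a group was seen in 2 libraries, its intervals overlapped.

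A TCR was known for 575 of all 1056 TIM-3+ Tex cells and 1444 of all 1891 transitory Teff cells. Cells without a TCR could not be counted for any clonotype, and they were a larger part of TIM-3+ Tex. Shared clonotypes held 79.1% of the 575 TIM-3+ Tex cells with a TCR and 35.2% of the 1444 transitory Teff cells with a TCR. The same clonotypes had 1550 cells over all clusters, the rest being 361 cycling cells, 86 TIGIT+ Teff, 76 GzmA+ Tex and 56 GzmB+ Teff cells, and 7 Tn and 1 Tcm cell. Just inside the rule, 8 of the 37 clonotypes had exactly 2 cells in 1 of the clusters. Just outside it were 26 clonotypes with 1 cell in 1 cluster and at least 2 in the other, of which 18 had a lone TIM-3+ Tex cell and 8 a lone transitory Teff cell. Of the 79 clonotypes with at least 4 cells over the 2 clusters, 37 were shared, 20 had no TIM-3+ Tex cell and 1 had no transitory Teff cell.

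Cells with the transitory Teff name were not uniform in the deposited table. Of the 508, 290 had cluster number 4, the usual number of that name, 147 had number 5, the number of 454 of the 455 TIM-3+ Tex cells, and 70 had number 6, which otherwise belongs to GzmB+ Teff. The remaining cell had another number. With only the cells whose number matches their name, 21 of 52 named genes kept a ratio inside their counting interval and 30 did not, and Xcl1 turned direction. Both values are given below where the ratio moved by over 1.5 times for a gene described with its levels. Depth was similar in the shared clonotypes' cells of the 2 clusters. The median was 4837 unique molecular identifiers (UMIs, counted RNA molecules) per transitory Teff cell and 5579 per TIM-3+ Tex cell. Totals were 2827699 and 2883365 UMIs. All cells of the 2 clusters had medians of 5545 and 8433 UMIs, so the TIM-3+ Tex cells compared here were shallower than their cluster. The median mitochondrial share of the cells compared was 1.64% and 1.51%. Libraries 1 to 4 contributed 371, 193, 29 and 370 cells, so library 3, with 19 transitory Teff and 10 TIM-3+ Tex cells, gave the least precise values.

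Levels are CPM, a gene's share of all UMIs in the pooled cells, scaled to 1e+06 UMIs. The log2 ratio of TIM-3+ Tex to transitory Teff was computed within each clonotype of a library and combined over the 37 with Mantel-Haenszel weights, so that a clonotype with more cells in 1 cluster does not by itself create a difference. Markers of CD8 T cells were found in both clusters, with Cd3e at 1962 CPM in transitory Teff and 2548 CPM in TIM-3+ Tex, and Cd8a at 841 and 1308 CPM. Havcr2, which encodes TIM-3, was at 16.3 and 115 CPM. Of the markers of transitory effector cells, Klf2, Cx3cr1, Klrd1 and Tbx21 were detected, and Zeb2, Klrg1 and S1pr5 were low in the cells so named, at 22.3, 15.6 and 1.77 CPM.

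Markers of other cell types were mostly at or near 0. Cd4, Ncr1, Cd79a, Ms4a1, Mzb1 and Adgre1 had 0 UMIs in both clusters. The summed level of 8 macrophage markers was 29.4 CPM in transitory Teff and 33.3 CPM in TIM-3+ Tex, that of 10 plasma and B cell markers 143 and 126 CPM, and that of 6 NK cell markers 149 and 160 CPM, mostly Klre1, which T cells also express. The summed level of 5 neutrophil markers came to 4.95 CPM in transitory Teff and 27.4 CPM in TIM-3+ Tex, with library ranges of 2.56 to 9.80 and 17.4 to 139 CPM. Of 5 erythroid markers, Car2 made up most of a sum of 39.3 and 137 CPM. Their part in the differences below was not tested.

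Of 2972 genes with at least 50 CPM in the higher cluster, 53 (1.78%) were at least 2-fold higher in TIM-3+ Tex within clonotypes and 35 (1.18%) at least 2-fold lower. The median log2 ratio over all genes tested was 0.04. Direction was the same in each of the 4 libraries for 44 of the 53 and 32 of the 35. Among the 1720 genes tested with a positive ratio this held for 512 (17.2% of all genes tested). Among the 1252 with a negative ratio it held for 360 (12.1% of all genes tested). Genes called by their ratio over these same libraries agree more often through that choice, so the counts are a description.

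Inhibitory receptors were the gene group with most members past 2-fold in the higher direction. Of 16 measured, 13 reached 50 CPM, and 5 of these were at least 2-fold higher in TIM-3+ Tex, 0 were lower and 8 were in between, with a median log2 ratio of 0.74. Havcr2 was at 14.1, 28.2, 58.8 and 8.41 CPM in the transitory Teff cells of libraries 1 to 4, and at 92.4, 142, 92.5 and 146 CPM in their TIM-3+ Tex cells. It was higher in TIM-3+ Tex in every library, with a log2 ratio of 2.48 (95% interval 2.01 to 2.94), and in 30 of 37 clonotypes. Over all genes tested, 1.38% were higher in at least 30 clonotypes and 1.41% were lower in at least 30. Cd244a, which encodes the SLAM family receptor 2B4, was at 5.12, 14.1, 39.2 and 11.5 CPM in transitory Teff and 80.1, 89.3, 46.2 and 69.5 CPM in TIM-3+ Tex, a log2 ratio of 2.66 (2.10 to 3.23), which was 1.83 as the median over clonotypes with 10 CPM added. Cd200r1, the receptor of the myeloid-restraining ligand CD200, had a log2 ratio of 2.23 (1.77 to 2.70). For these 3 genes library 3 had the smallest ratio, between 0.21 and 0.41. Entpd1, which encodes the ectonucleotidase CD39, was higher in 34 of 37 clonotypes, with 46.7 CPM in transitory Teff and 124 CPM in TIM-3+ Tex. Cd101, a marker of terminal exhaustion, was at 23.7 and 53.4 CPM but was lower in TIM-3+ Tex in library 3.

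The receptors most used to define exhaustion differed less. Pdcd1, which encodes PD-1, was at 443, 497, 382 and 382 CPM in the transitory Teff cells of libraries 1 to 4 and 716, 681, 659 and 783 CPM in the TIM-3+ Tex cells, a log2 ratio of 0.74 (0.62 to 0.85). Lag3 was at 523, 669, 588 and 490 CPM and at 926, 862, 1179 and 905 CPM, a log2 ratio of 0.71 (0.61 to 0.81). Tigit, the target of the antibody in this study, was at 530, 510, 490 and 632 CPM and at 741, 681, 682 and 904 CPM, with a log2 ratio of 0.38 (0.28 to 0.49). All 3 were higher in TIM-3+ Tex in every library and in 30, 35 and 32 of 37 clonotypes, and 0 of them reached 2-fold. With cells of matching cluster number only, the log2 ratio of Pdcd1 was 1.07, past 2-fold, and that of Lag3 was 0.98. Klrc1, which encodes NKG2A, and Vsir, which encodes VISTA, had log2 ratios of -0.38 and 0.10.

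Transcription factors of exhaustion followed the same split. Of 11 tested, 2 were at least 2-fold higher, 0 lower and 9 in between, with a median log2 ratio of 0.42. Tox, the central regulator of the exhausted state, was at 518, 576, 578 and 502 CPM in transitory Teff and 586, 647, 682 and 551 CPM in TIM-3+ Tex, a log2 ratio of 0.18 (0.07 to 0.29). It was higher in 20 clonotypes and lower in 17. The NR4A family member Nr4a2, induced by TCR signaling, was at 193, 171, 196 and 111 CPM and at 389, 410, 636 and 357 CPM, a log2 ratio of 1.20 (1.03 to 1.37), which was 2.05 with cells of matching number only. Prdm1, which encodes the repressor BLIMP-1, was at 33.2 and 82.2 CPM, while Eomes and Batf had log2 ratios of -0.13 and 0.41.

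**Figure D2:**
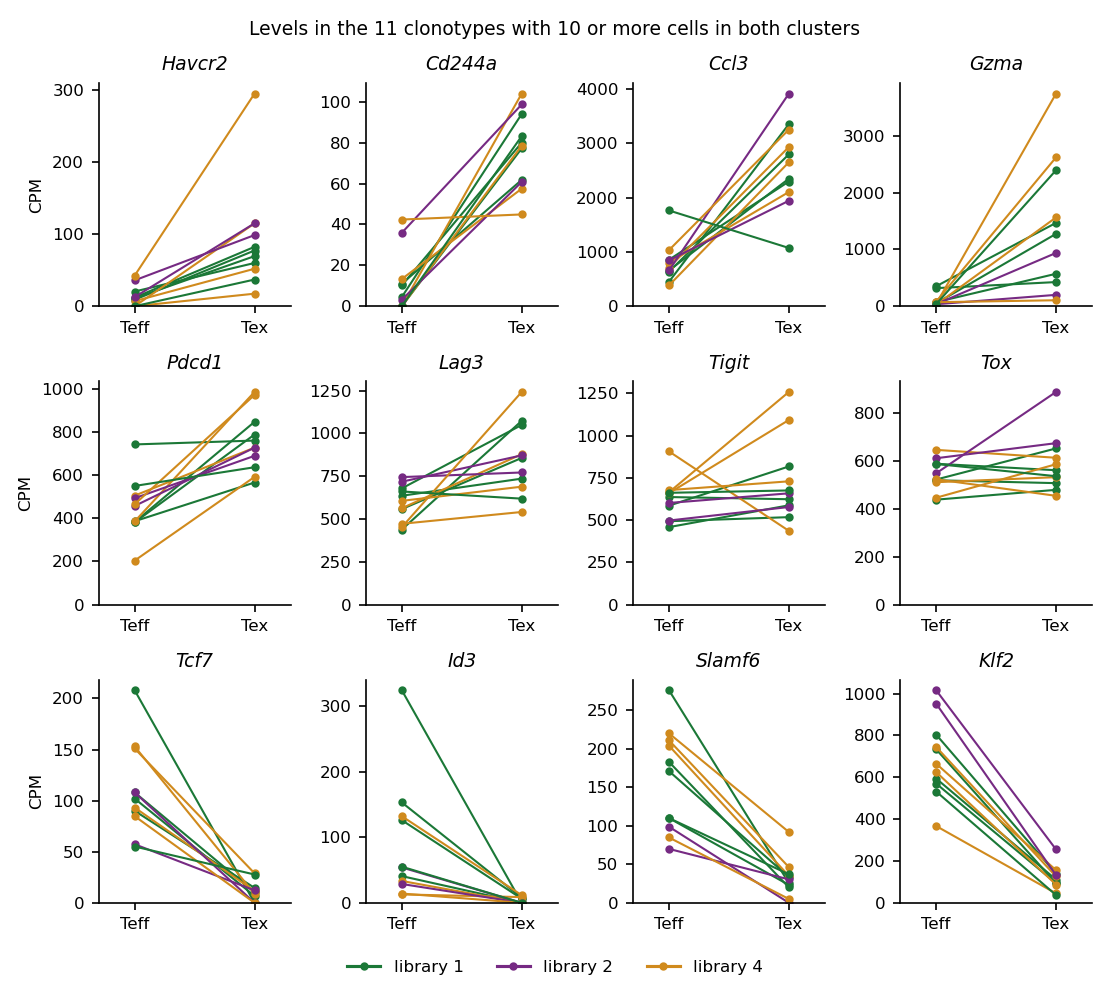
CPM of 12 genes in the 11 clonotypes with at least 10 cells in both clusters, each line joining transitory Teff (left) and TIM-3+ Tex (right) of 1 clonotype, colored by library (library 3 has no such clonotype); y axes are linear and start at 0. Havcr2 and Cd244a go up and Tcf7, Id3, Slamf6 and Klf2 go down along all 11 lines, and Tox goes up in 6 and down in 5. The 11 clonotypes belong to chain-sharing groups 1 to 5 and are not all independent.

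Among the 11 clonotypes with at least 10 cells in both clusters, 50 of the 2972 genes (1.68%) were higher in TIM-3+ Tex in each clonotype and 37 (1.24%) were lower in each. These 11 belonged to chain-sharing groups 1 to 5, with several in each of groups 1 to 3, so they are not 11 independent clones. Cd244a ranged from 0 to 42.4 CPM in transitory Teff and from 44.9 to 104 CPM in TIM-3+ Tex, so that its levels did not overlap between the clusters. Klf2 ranged from 367 to 1016 CPM and from 37 to 255 CPM, and did not overlap either. Over all genes tested, 0.168% were higher and 0.303% were lower with no overlap. Tcf7, Id3 and Cd200r1 were also without overlap. For Pdcd1 the lowest, median and highest levels were 204, 458 and 744 CPM in transitory Teff and 567, 729 and 988 CPM in TIM-3+ Tex, which overlapped.

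Stemness and progenitor genes were the group with the largest difference in the lower direction. Of 16, 7 reached 50 CPM, and 6 of the 7 were at least 2-fold lower in TIM-3+ Tex, with a median log2 ratio of -1.84. Tcf7, which encodes the stemness factor TCF-1, was at 124, 81.6, 118 and 132 CPM in the transitory Teff cells of libraries 1 to 4 and at 11.6, 4.83, 0 and 18.0 CPM in the TIM-3+ Tex cells. The log2 ratio was -2.89 (-3.40 to -2.38), and Tcf7 was lower in 32 and higher in 2 clonotypes, with no UMI in the other 3. Id3, an inhibitor of E proteins that marks progenitor exhausted cells, was at 133, 62.8, 19.6 and 98.6 CPM in transitory Teff and at 2.58, 0, 0 and 14.4 CPM in TIM-3+ Tex. Its log2 ratio of -3.37 (-4.03 to -2.72) was the lowest of all genes tested, and it was lower in 27 clonotypes and higher in 0. The ratio of Id3 moved with the cells used, to -5.73 without library 4, -2.41 without library 1, -2.43 with cells of matching number only and -2.11 as the median over clonotypes. That of Tcf7 moved to -3.60 without library 4 and to -3.70 with each cell thinned to 2500 UMIs. Slamf6, which encodes the progenitor marker Ly108, was at 175, 81.6, 58.8 and 167 CPM and at 26.5, 19.3, 34.7 and 41.9 CPM, a log2 ratio of -2.06 (-2.40 to -1.71).

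Lef1, the close relative of TCF-1, was at 58.7 CPM in transitory Teff and 18.0 CPM in TIM-3+ Tex. Foxo1 was the tested member short of 2-fold, at a log2 ratio of -0.46. Below the filter, Cxcr5, a receptor of progenitor cells in lymphoid follicles, was at 49.5 and 6.24 CPM. Xcl1, a chemokine that attracts cross-presenting dendritic cells, was at 843, 256, 392 and 820 CPM and at 253, 7.24, 11.6 and 313 CPM, a log2 ratio of -1.41 (-1.54 to -1.29). Without the transitory Teff cells numbered 5 and 6 the Xcl1 ratio turned to 0.30. It was -0.76 with thinned cells and -2.15 as the median over clonotypes.

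Genes of transitory effector cells were divided. Of 14 transitory effector genes tested, 5 were at least 2-fold lower, 0 were higher and 9 were in between, with a median log2 ratio of -0.62. Klf2, which controls exit from tissue, was at 658, 910, 1177 and 618 CPM in the transitory Teff cells of libraries 1 to 4 and at 121, 193, 34.7 and 113 CPM in the TIM-3+ Tex cells. It was lower in 36 of 37 clonotypes, with a log2 ratio of -2.33 (-2.50 to -2.16). S1pr1, the KLF2 target that lets T cells follow sphingosine-1-phosphate into the blood, was at 62.8, 61.2, 58.8 and 46.6 CPM and at 11, 14.5, 0 and 10.8 CPM, a log2 ratio of -2.13 (-2.67 to -1.58). Cx3cr1, the fractalkine receptor that gives transitory effector cells their other name, was at 85.2 and 43.4 CPM, a log2 ratio of -1.25 (-1.59 to -0.91). Id2 and Klrd1, which are shared by effector and exhausted cells, had log2 ratios of 0.65 and 0.35.

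Among 8 chemokine and homing receptors tested, 4 were at least 2-fold lower and 1 was at least 2-fold higher, with a median log2 ratio of -0.74. The inflammatory homing receptor Cxcr3 was at 161, 176, 137 and 182 CPM in transitory Teff and at 67.2, 33.8, 80.9 and 102 CPM in TIM-3+ Tex. Cxcr6, which places T cells beside CXCL16-presenting cells, went the other way, at 193, 297, 255 and 193 CPM and at 686, 635, 428 and 452 CPM, with a log2 ratio of 1.32 (1.18 to 1.47). For both genes the library levels did not overlap between the clusters, as was so for 6.29% of all genes tested in the higher and 4.44% in the lower direction.

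Of 4 chemokines tested, 2 were at least 2-fold higher in TIM-3+ Tex, 1, Xcl1, was at least 2-fold lower and 1 was in between, with a median log2 ratio of 0.99. Ccl3 was at 610, 697, 1294 and 521 CPM in the transitory Teff cells of libraries 1 to 4 and at 3059, 2778, 6057 and 3182 CPM in the TIM-3+ Tex cells. Its log2 ratio was 2.22 (2.14 to 2.30), between 2.06 and 2.31 in each library, and it was higher in 35 of 37 clonotypes. Ccl4 was at 1108, 1968, 2030 and 1198 CPM and at 3863, 3987, 9051 and 5776 CPM, a log2 ratio of 1.66 (1.60 to 1.71), or 2.25 with cells of matching number only. Ccl5 had a log2 ratio of 0.33 and was lower in TIM-3+ Tex in library 3.

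Of 12 cytotoxic granule genes tested, 1 was at least 2-fold higher, 0 were lower and 11 were in between, with a median log2 ratio of 0.22. Gzma, which encodes granzyme A, was the exception and varied most between clones. It was at 237, 190, 549 and 135 CPM in transitory Teff and at 1341, 1945, 11.6 and 1387 CPM in TIM-3+ Tex, so that it was higher in 3 libraries and lower in library 3, where the 10 TIM-3+ Tex cells held 1 Gzma UMI. The log2 ratio was 2.37 (2.24 to 2.50), but Gzma was higher in 23 and lower in 11 clonotypes, and the middle 50% of clonotypes spanned -1.10 to 4.37 on the log2 scale with 10 CPM added. In the TIM-3+ Tex cells of the TRAV13N-1 and TRBV5 clonotype of library 4, 49 cells were at 105 CPM, while 13 cells of the TRAV16N and TRBV16 clonotype of that library were at 3742 CPM and 22 cells of TRAV9-4 with TRBV16 at 2620 CPM. Gzmb was at 305 and 506 CPM, a log2 ratio of 0.58, and Prf1, which encodes perforin, at 122 and 256 CPM, a log2 ratio of 0.81. Gzmk was at 646 and 722 CPM and was higher in 19 and lower in 18 clonotypes.

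Cytokines were sparse, and 4 of 12 reached 50 CPM. Ifng was at 155, 256, 431 and 154 CPM in transitory Teff and at 228, 292, 381 and 315 CPM in TIM-3+ Tex, a log2 ratio of 0.53 (0.35 to 0.70), and the levels of the libraries overlapped. Below the filter, Il10 was at 2.12 and 28.1 CPM and Csf1, the macrophage growth factor, at 1.41 and 26.4 CPM. Of 8 cytokine receptors tested, Il18r1 was at least 2-fold lower, at 53.0 and 20.8 CPM, and Il2rb had a log2 ratio of 0.63. Among 9 costimulatory and TIGIT axis receptors, Cd7 and Tnfrsf9, which encodes 4-1BB, were at least 2-fold higher and 0 were at least 2-fold lower. Tnfrsf9 was at 154, 151, 147 and 128 CPM and at 365, 316, 867 and 223 CPM, a log2 ratio of 1.07, or 2.19 with cells of matching number only. Cd28 had a log2 ratio of -0.85 (-1.09 to -0.62), and Cd226, which encodes the activating partner of TIGIT, DNAM-1, of 0.86.

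**Figure D3:**
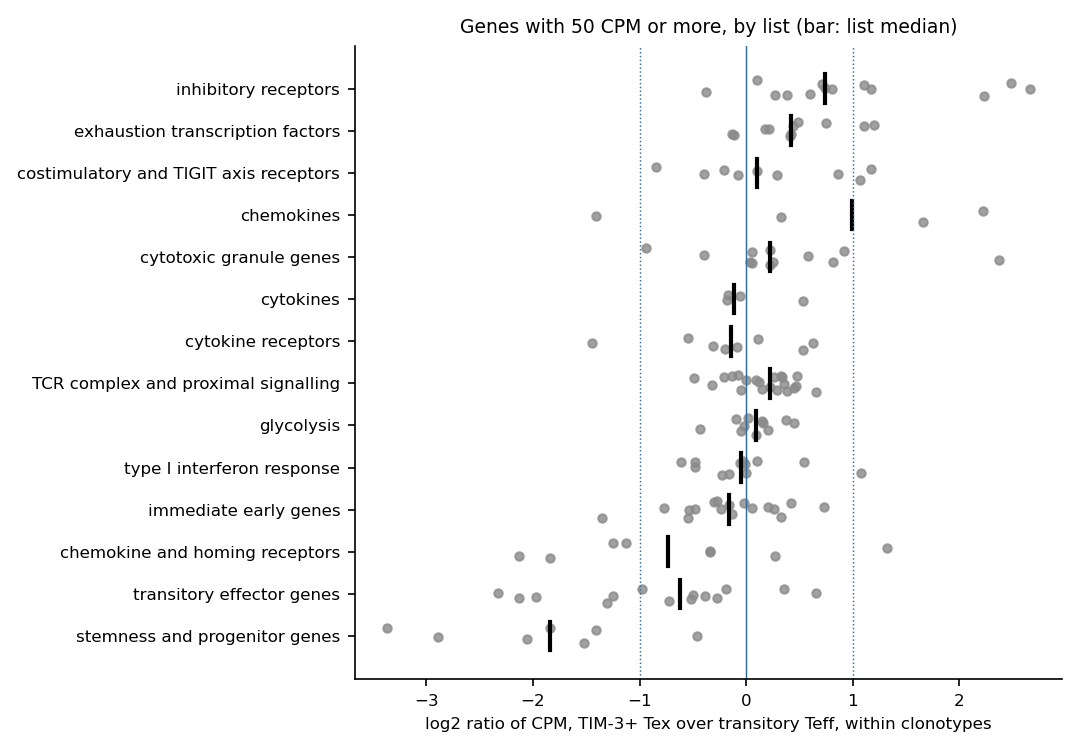
Log2 ratio of CPM, TIM-3+ Tex over transitory Teff within clonotypes (x axis), for each gene with at least 50 CPM in 14 lists (rows); points are genes, black bars are list medians and dotted lines mark 2-fold. The list medians run from -1.84 for stemness and progenitor genes to 0.99 for chemokines, and the TCR, glycolysis and cytokine lists stay inside 2-fold.

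Several groups differed little within clonotypes. Of 21 genes of the TCR complex and proximal signaling, 0 passed 2-fold, and their log2 ratios ran from -0.49 for Ptpn6 to 0.65 for Cd8a. The 11 glycolysis genes ran from -0.43 to 0.45 and the 7 genes of the BCL2 family from -0.10 to 0.93, where the highest was the pro-apoptotic Bcl2l11. Of 12 interferon response genes 1, Isg20, was past 2-fold, and of 17 immediate early genes 1, Ier3, was at least 2-fold lower, at 194 and 74.2 CPM. Fos and Jun had log2 ratios of -0.77 and -0.54. Of 75 ribosomal protein genes tested, 72 were lower and 3 higher in TIM-3+ Tex, none past 2-fold, with a median log2 ratio of -0.16. Of 10 proliferation genes the replication licensing factors Mcm3 and Mcm5 were at least 2-fold higher, at 41 and 75.3 CPM and at 30.8 and 57.2 CPM, and Mki67 was low in both clusters, at 21.2 and 37.5 CPM. Among 5 regulators of G protein signaling Rgs1 was at least 2-fold higher, at 180 and 428 CPM. The 4 genes of cytokine feedback and 4 nuclear transcripts were all inside 2-fold, with median log2 ratios of 0.01 and -0.03.

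Genes outside the lists were among those with the largest ratios. With the same direction in each library and in at least 60% of clonotypes, the 15 highest were Cd244a, Havcr2, Cd200r1, Ccl3, 2900026A02Rik, Fgl2, Adgrg1, Snx9, Ccrl2, Chn2, Ccl4, Car2, Cd200r4, Gsto1 and Hic1. Adgrg1, the adhesion receptor GPR56 of cytotoxic lymphocytes, was at 28.3 and 133 CPM and was higher in 33 of 37 clonotypes. With cells of matching number only, the ratio moved by over 1.5 times for 2900026A02Rik, Adgrg1, Car2, Ccl4, Gsto1 and Hic1, with log2 ratios of 2.40 against 1.81 for Adgrg1 and 4.39 against 1.65 for Car2, and Car2 was at 2.40 without library 1. Chn2, which encodes the Rac regulator beta-chimaerin, was at 47.0 and 168 CPM, and Fgl2 at 23.0 and 86.4 CPM. The 15 lowest were Id3, Tcf7, Klf2, Crtam, S1pr1, Slamf6, Klf3, Gm45552, Kcnn4, Emb, Sidt1, Cdc25b, Samd3, AB124611 and Lef1. Crtam, an adhesion molecule of activated T cells, was at 113, 40.8, 39.2 and 80.3 CPM in transitory Teff and at 14.9, 4.83, 0 and 26.4 CPM in TIM-3+ Tex. Its log2 ratio of -2.27 was -1.12 with cells of matching number only, -1.57 with thinned cells and -3.10 without library 4. Kcnn4, which encodes a calcium-activated potassium channel, was at 98.7 and 24.3 CPM. Spp1, which encodes osteopontin and is named here because of its value, had a log2 ratio of 2.86 (2.44 to 3.28), or 3.66 with cells of matching number only, but 18 of 37 clonotypes had no Spp1 UMI at all, so it was left out of the 15.

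Because a clonotype is defined by its V genes, differences in V gene use between the clusters drop out within clonotypes by design. The ratios of TCR variable genes are therefore no check on those of other genes. Over all cells of the 2 clusters, Trav13n-1 had a log2 ratio of 1.58 and Trav16n of 1.42. Within clonotypes the ratios were 0.53 (0.24 to 0.83) and 0.07 (-0.14 to 0.27). Trav13n-1 thus stayed higher in TIM-3+ Tex within clonotypes, and the cause was not tested.

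Cells of shared clonotypes differed from other cells of the same cluster name. Pdcd1 in the transitory Teff cells of shared clonotypes was at 443, 497, 382 and 382 CPM in libraries 1 to 4, and in the 936 other transitory Teff cells with a TCR at 136, 175, 185 and 252 CPM. Lag3 was at 523, 669, 588 and 490 CPM against 186, 198, 217 and 274 CPM. Tigit was at 530, 510, 490 and 632 CPM against 215, 205, 235 and 358 CPM. For each of the 3 receptors the 4 libraries did not overlap, and neither did Tox, at 502 to 578 CPM in shared clonotypes and 211 to 324 CPM in other cells. Of 2884 genes with at least 50 CPM in either set of transitory Teff cells, 3.43% were higher and 3.81% were lower in shared clonotypes with no overlap between libraries. Havcr2 was at 16.3 CPM in shared clonotypes and 16.6 CPM in other cells. The pattern was also present in cells numbered 4 alone, where Pdcd1 was at 344 CPM in shared clonotypes and 138 CPM in other cells, and Lag3 at 472 and 172 CPM.

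**Figure D4:**
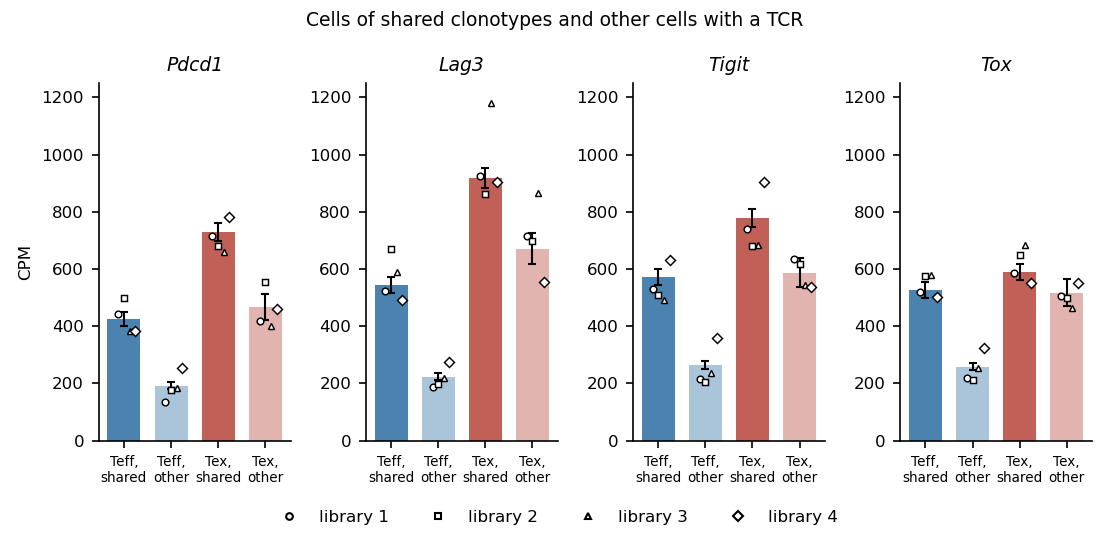
CPM (y axis) of Pdcd1, Lag3, Tigit and Tox in transitory Teff (blue) and TIM-3+ Tex (red), for cells of shared clonotypes (dark) and other cells with a TCR (pale); bars pool the libraries with 95% Poisson intervals and symbols are the 4 libraries. Transitory Teff cells of shared clonotypes lie above other transitory Teff cells in every library, and Tox lies between 502 and 682 CPM in the cells of shared clonotypes of both clusters.

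Large clonotypes that were not shared gave a second comparison. At least 10 transitory Teff cells, up to 51, and at most 1 TIM-3+ Tex cell were found in 9 clonotypes, with 195 transitory Teff cells in all. Their Pdcd1 levels ran from 35.4 to 288 CPM with a median of 159, while those of the 17 shared clonotypes with at least 10 transitory Teff cells ran from 204 to 763 CPM with a median of 387. Lag3 ran from 47.1 to 329 CPM, with a median of 129, against 220 to 775 CPM, with a median of 558. Tox ran from 58.9 to 575 CPM against 295 to 718 CPM. The ranges overlapped, but for Pdcd1 and Lag3 the median of the shared clonotypes lay above the highest of the 9. Xcl1 had medians of 20 and 511 CPM, Id3 of 8.61 and 103 CPM, and Slamf6 of 43.0 and 159 CPM, so progenitor genes were also higher in the transitory Teff cells of large shared clonotypes. In contrast, Cxcr6 had medians of 400 and 216 CPM and Gzmb of 507 and 287 CPM. The 9 clonotypes were spread over the libraries as 3, 3, 2 and 1, and the 17 over libraries 1, 2 and 4 as 6, 3 and 8. In libraries 1, 2 and 4, pooled Tox was at 289, 186 and 575 CPM in the 9 and 533, 616 and 507 CPM in the 17. Gzmb was at 1254, 254 and 355 CPM against 241, 419 and 218 CPM. Tox thus turned direction in library 4, which held 1 of the 9, and Gzmb in library 2.

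For these receptors the ratio between the clusters was smaller within clonotypes than among the other cells with a TCR. The log2 ratio within shared clonotypes and among the 936 other transitory Teff and 120 other TIM-3+ Tex cells was 0.74 and 1.28 for Pdcd1, 0.71 and 1.58 for Lag3, and 0.38 and 1.15 for Tigit, with intervals that did not overlap. For Tox the ratio was 0.18 within shared clonotypes, and the other cells were at 258 CPM in transitory Teff and 515 CPM in TIM-3+ Tex. Havcr2 had 2.48 and 2.46, and Klf2 -2.33 and -2.07. The log2 ratio among other cells came from counts pooled over cells and libraries, without strata, so the 2 ratios are unlike measures. In pooled levels, Havcr2 was at 16.3 CPM in transitory Teff and 115 CPM in TIM-3+ Tex of shared clonotypes. In the other cells it was at 16.6 and 91.3 CPM. Gzma was larger within clonotypes, at 2.37 and 0.56, with 866 CPM in other transitory Teff cells and 190 CPM in those of shared clonotypes. The pooled 0.56 joined libraries of opposite direction. In libraries 1 to 4, Gzma was at 1610, 493, 719 and 622 CPM in other transitory Teff cells. In other TIM-3+ Tex cells it was at 2408, 1572, 226 and 480 CPM. Il7r, which encodes the receptor for the survival cytokine IL-7, was at 17.0 CPM in the transitory Teff cells of shared clonotypes and 123 CPM in other transitory Teff cells, and at 2.43 and 4.51 CPM in TIM-3+ Tex. Plac8 turned direction, at 1.24 within clonotypes and -0.60 among other cells. Of the 88 genes past 2-fold within clonotypes, 86 had the same sign and 59 were past 2-fold in the same direction among the other cells. The other cells are not matched by clone, and fewer cells of a kind and a lower level per cell cannot be told apart in summed counts.

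The cluster number divided the transitory Teff cells of shared clonotypes into sets with distinct levels. The 70 cells numbered 6, from 24 clonotypes, had Xcl1 at 2182 CPM (95% Poisson interval 2063 to 2306), Tcf7 at 252 CPM (212 to 296), Id3 at 278 CPM (236 to 324) and Cxcr5 at 137 CPM (109 to 171). Cells numbered 4 had the same genes at 233, 106, 63.3 and 28.6 CPM, and cells numbered 5 at 432, 36.4, 23.4 and 20.8 CPM. In the other direction, Klf2 was at 1100 CPM in cells numbered 4, 454 CPM in cells numbered 5 and 81.6 CPM in cells numbered 6, and Cx3cr1 at 112, 89.8 and 12.2 CPM. Gzmb was at 19.1 CPM (9.53 to 34.2) in cells numbered 6, although that number otherwise belongs to GzmB+ Teff, and Havcr2 had 0 UMIs there, which allows up to 5.21 CPM. Cells numbered 6 came from all libraries, 26, 4, 2 and 38 of them in libraries 1 to 4, and Xcl1 lay between 1352 and 2747 CPM in each.

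Cells numbered 5 were between cells numbered 4 and TIM-3+ Tex for several genes. Ccl3 was at 499 CPM in cells numbered 4, 1074 CPM in cells numbered 5 and 3144 CPM in TIM-3+ Tex. Havcr2 was at 11.6, 37.7 and 115 CPM, and Pdcd1 at 344, 565 and 728 CPM. Tcf7 was at 106, 36.4 and 12.1 CPM. Other genes were not between, as Gzma was at 301, 116 and 1401 CPM, Xcl1 at 233, 432 and 228 CPM and Cd244a at 13.6, 13 and 77.3 CPM. As the number was assigned by the authors' clustering of these cells, the differences between numbers are a description.

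**Figure D5:**
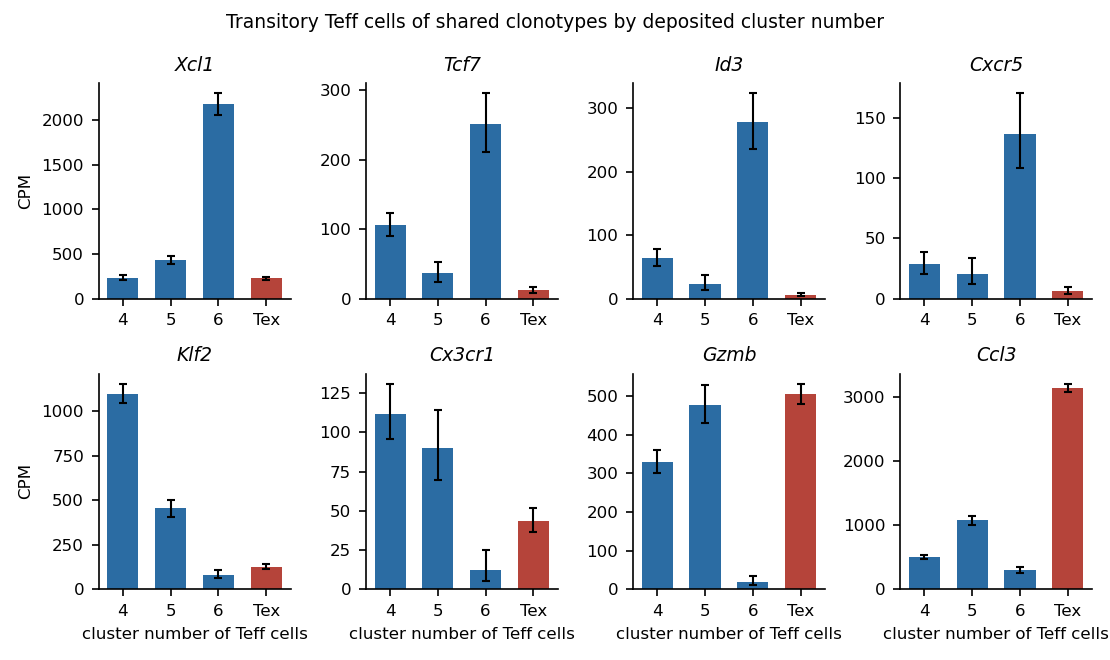
CPM (y axis) of 8 genes in transitory Teff cells of shared clonotypes with cluster number 4, 5 or 6 (blue) and in TIM-3+ Tex cells of the same clonotypes (red), with 95% Poisson intervals; y axes start at 0. Xcl1, Tcf7, Id3 and Cxcr5 peak in number 6, Klf2 and Cx3cr1 in number 4, and Ccl3 in TIM-3+ Tex.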

How the data were processed

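Single-cell RNA and TCR libraries (10x 5′ platform) of 4 treatment groups were used. The authors deposited 1 table of whole-number UMI counts (17561 genes, 11754 cells), a cell table with cluster names, numbers and a mitochondrial fraction (also deposited by the authors), and TCR chains. Cell Ranger 7.00 and mm 10 stand in the submitters' processing notes. The authors kept cells of 2500 to 25000 UMIs with under 15% mitochondrial reads. No doublet call was made here, and 203 of the member cells had a pair of TRA or TRB chains. Library numbers carry no treatment name, so treatments were not compared.

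Counts were summed per cluster within each clonotype and library. The ratio of CPM was combined over clonotypes (Mantel-Haenszel, Greenland-Robins 95% interval), and genes with at least 50 CPM in the higher cluster were called at 2-fold. Intervals, and limits from a count of 0 (3 UMIs), cover counting error only, since UMIs of 1 library are not biological replicates. No p was computed: the authors' clustering used the same cells. The calculation was tested on simulated counts in which a gene had the same true ratio in every clonotype. The simulation therefore does not cover ratios that differ between clonotypes. Named genes were examples from 26 lists, planned as 2 to 4 each but more in some lists, with some below 50 CPM. Others were the 15 highest and 15 lowest with 1 direction in each library and in at least 60% of clonotypes. TCR variable genes past 2-fold over all cells were also named, as were the 6 largest clonotypes and both ends of the TIM-3+ Tex share. Members, lists and alternatives were chosen with earlier results of these data known. Library depth was 15556967 to 38440687 UMIs, and 1 UMI was 0.354 CPM in transitory Teff and 0.347 CPM in TIM-3+ Tex of shared clonotypes. Alternatives changed the estimate, depth, denominator, filter, clonotype definition, cell minimum, cluster numbers and libraries. Tables were read with pandas 2.3.3 in Python 3.11.15, intervals came from scipy 1.17.1 with numpy 2.4.6, and plots from matplotlib 3.10.9. Values of some genes are not reported here.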

Additional observations from a re-analysis of the deposited data

Results flagged for a closer look

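Gzma was the named gene whose ratio in 1 library went against all libraries together with an interval clear of 0. In library 3 its log2 ratio of TIM-3+ Tex to transitory Teff was -5.28 (95% counting interval -7.98 to -2.59), against 2.37 over all libraries. The value rests on 56 Gzma UMIs in 19 transitory Teff cells (549 CPM) and 1 UMI in 10 TIM-3+ Tex cells (11.6 CPM) of 3 clonotypes. The difference between libraries was not tested, as each library is a single pool of mice.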

How the results depend on the processing

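The 37 clonotypes and the 53 higher and 35 lower genes were recomputed under 17 alternatives. A filter of 200 CPM left 11 higher and 3 lower genes, and no filter gave 1729 and 1596, which include genes with 0 UMIs in a cluster. Cells whose cluster number matched their name gave 84 higher and 59 lower genes in 32 clonotypes, with 50 of the 53 and 28 of the 35 among them, and turned Xcl1 to 0.30 from -1.41. Asking for 1 or for 4 cells in each cluster gave 74 and 23 clonotypes. Joining clonotypes that share a chain, chosen after seeing the data, gave 23 clonotypes, with 52 higher and 37 lower genes. Leaving out each library in turn gave 24 to 34 clonotypes, 44 to 63 higher and 34 to 49 lower genes, with 24 clonotypes without library 1 and also without library 4. Other alternatives kept both gene counts within 1.5 times. Of 780 log2 ratios of 52 named genes, 664 stayed within the counting interval and 5 changed sign, Xcl1 under 1 alternative and Gzmk, near 0 in all, under 4. The median over clonotypes with 10 CPM added gave 1.83 for Cd244a, -2.11 for Id3 and 0 for Spp1, and 0.84, 0.75 and -0.92 for Cd200r4, Hic1 and Samd3, inside 2-fold. The cause of these moves was not tested. No paired analysis was possible because each treatment group is 1 library. This concerns treatments only, as the 2 clusters were compared within clonotypes of a library. Depth limits library 3, with 29 member cells, most.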
